A study of Mus musculus and Mus musculus
Oryx dammah with 30 samples.

Results

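The small nucleolar RNA (snoRNA) host RNAs Gas5, Snhg1, Snhg3, Snhg5, Snhg6, Snhg8, Snhg12 and Snhg15 were followed in mouse nuclear transfer (NT) embryos with RNA polymerase II running or blocked by α-amanitin. These 8 genes were taken by name from the 3 mouse tables, which together list 55810 genes. All 8 are listed in every table, and all 8 passed the filter on low values in every comparison.

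As a rule, snoRNAs guide chemical marks on ribosomal RNA: box C/D snoRNAs (Snord) direct 2′-O-methylation and box H/ACA snoRNAs (Snora) direct pseudouridylation. Most vertebrate snoRNAs are cut out of introns, and a host gene can be one whose spliced RNA codes for no long protein. Such spliced host RNAs are engaged by ribosomes, and many are short-lived because nonsense-mediated decay (NMD) removes them while they are translated. Several, Gas5 among them, are known for a 5′ terminal oligopyrimidine (TOP) start, the short C and T run that also begins ribosomal protein mRNAs.

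The recipients were in vitro fertilised embryos of C57BL/6 and DBA/2 strains, cultured with 0.1 µg/ml demecolcine, which halts cell division and which every group received. By the study, four-cell embryos were at G2/M from 46 h post insemination on, while the early two-cell transfers preceded DNA replication. The donors were C2C12 cells, a myoblast line from C3H mice, so each pool held RNA of the embryo and of the transferred nuclei and cytoplasm together. In the four-cell experiment, transfer began at 46 h post insemination (hpi) and culture ended at 70 hpi, without α-amanitin, the RNA polymerase II inhibitor (α-amanitin −), or with it (α-amanitin +), with 3 libraries per group and 3 embryos per pool. The experiment on DNA replication has groups D and DR, with 3 libraries each, 4 four-cell embryos per pool and no α-amanitin. The labels give transfer at 40 to 43 hpi and culture to 64 hpi for it, without saying for which group, and separate D from DR by these letters only. The study compares transfer at 40 hpi, after which DNA was replicated, with transfer at 46 hpi, when replication was over. In the two-cell experiment, 5 embryos were pooled per library, with 6 libraries without and 6 with α-amanitin, from early transfers (21 hpi, cultured to 45 hpi) and late ones (30 hpi, cultured to 54 hpi). The two-cell columns are named NT, Am, R and RAm, 3 of each. The α-amanitin state was read from the letters Am, and the names do not say which columns are early and which are late.

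Depth was 1136771 to 3101002 reads per library in the four-cell experiment, where FPKM resolve into whole reads. In the other experiments it was approximately 2603946 to 19181388 and 4712269 to 10503779 reads. The 3 RAm libraries stood apart from the other α-amanitin + libraries, with Pearson r over genes on the log2 scale as low as 0.638 against Am, where Am libraries reached 0.937 among themselves. The sum of 8 embryo markers, nearly all of it Dppa3 (a maternal chromatin protein gene), was 947 to 1496 FPKM in RAm and 6983 or more in the other two-cell libraries. Dppa4 followed Dppa3, at 5.15 to 11.8 FPKM in RAm and 226 or more elsewhere. The oocyte gene Nlrp5 went the other way, at 19.8 to 41.6 FPKM in RAm and 14.9 or less elsewhere, as did Ooep, at 18.7 to 28.7 FPKM against 6.67 or less. Among 12 donor markers, Myod1 stood at 0 to 7.09 FPKM in four-cell and 0 to 0.454 FPKM in two-cell libraries, and Col1a1 at 0 and at 0 to 0.312 FPKM. Sparc stood at 3.75 to 41.7 and 9.62 to 52.2 FPKM. Lgals1 was the highest donor marker in all libraries of these experiments but S16 and S18, where Acta2 was. Two-cell results of the host RNAs are therefore given for all 12 libraries and within each column set, while gene lists were tested over the 12 libraries only. In pooled embryos, fewer cells and less RNA per cell cannot be told apart.

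The host genes differ in their load of snoRNAs. In GRCm38 (mm10), Gas5 (ENSMUSG00000053332, chr1:161034422-161038539, plus strand) encloses 10 snoRNA annotations, with Snord80 entered under a pair of identifiers and 1 entry named Mir5117, and Snhg1 (chr19:8723475-8726443, plus strand) encloses 8, Snord22 among them. Snhg12 (chr4:132308623-132311024, plus strand) encloses 5 entries of both classes, Snora16a under a pair of identifiers. Snhg3 (chr4:132348014-132353686, minus strand) holds the H/ACA snoRNAs Snora73a and Snora73b, and Snhg5 (chr9:88521050-88522929, minus strand) holds the C/D guides Snord50a and Snord50b. The single guides are Snord87 in Snhg6 (chr1:9941959-9944118, minus strand), Snora24 in Snhg8 (chr3:123507552-123508404, minus strand) and Snora9 in Snhg15 (chr11:6525591-6528760, minus strand). Of these 30 annotations, 28 overlap an exon of at least 1 annotated host transcript and 2 (Snora73b and Snord87) lie in introns of every host transcript. The counted bases cover 100% of the span of Snhg1 and Snhg8 in all tables, 91.3% of Gas5 and 17.4% of Snhg3. They cover 92% of Snhg5 and 69.3% of Snhg12 in the four-cell and replication tables, and 12.8% and 100% in the two-cell table. For Snhg15 the share is 42.9% in the former tables and 83.2% in the latter, and for Snhg6 it is 53.1% in all. Reads from retained introns that lie in the counted bases cannot be told from spliced RNA.

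Start sites are shown because a TOP start is the feature these hosts are known for. Each line gives 25 bases before and 25 from the RefSeq start (GRCm38.p6), 5′ to 3′ on the gene's strand, with the longest unbroken run of C and T in capitals.
Gas5, second start, chr1:161035141-161035190, plus: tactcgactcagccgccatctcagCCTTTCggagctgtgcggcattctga
Snhg12, chr4:132308653-132308702, plus: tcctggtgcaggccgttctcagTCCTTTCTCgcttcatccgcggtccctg
Snhg8, chr3:123508312-123508361, minus: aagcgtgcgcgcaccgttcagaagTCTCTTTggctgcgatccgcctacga
Snhg1, chr19:8723462-8723511, plus: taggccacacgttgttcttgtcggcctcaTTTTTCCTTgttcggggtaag
Snhg5, chr9:88522873-88522922, minus: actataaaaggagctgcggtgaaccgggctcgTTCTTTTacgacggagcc

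A run of 6 bases passes through the second Gas5 start, and 7.25% of 32851 promoters hold a run at least as long through the start. The run through the start has 7 bases in Snhg8 (5.28% of promoters) and 9 in Snhg12 (3.03%). In Snhg1, 4 bases of C and T pass through the start (14%), and the longer run of 9 begins at base 5 of the RNA. No C and T run passes through the listed start of Snhg3, Snhg5, Snhg15 or the first start of Gas5. The table used has no promoter for Snhg6. These letters describe the annotated starts, which need not be the ones used in the embryo.

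By group mean FPKM, Gas5 was the most abundant host RNA in every group, and Snhg15 was next in 4 of the 6 groups. Single libraries departed from this order: Snhg3 was above Gas5 in r1 and r2 and level with it in R3, and Snhg15 was above Gas5 in D5. In four-cell embryos without α-amanitin, the mean FPKM (± SD, n = 3) fell from 121 ± 15.6 for Gas5 through 90.3 ± 30.0 for Snhg15 and 35.2 ± 15.9 for Snhg5 to 5.02 ± 2.92 for Snhg8. The ranges of neighbours in this order overlapped, except between Snhg15 and Snhg5 and between Snhg1 and Snhg3. Under α-amanitin, Snhg5 moved from the third place to the seventh, at 3.02 ± 2.77 FPKM. Gas5 made up 33.6% to 42.3% of the summed FPKM of the 8 members in the four-cell libraries.

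The four-cell comparison asks which host RNAs were higher when RNA polymerase II could transcribe for 24 h after transfer. Snhg5 was the only member past the test, 9.63-fold higher without α-amanitin. Its introns carry the U50 guides, Snord50a and Snord50b, which direct methylation of ribosomal RNA, and its counted bases cover 92% of its span in this table. Snhg5 stood at 40.1, 17.4 and 48.1 FPKM (158, 55 and 180 reads) without α-amanitin and at 1.86, 1.02 and 6.18 FPKM (10, 2 and 17 reads) with it. The groups did not overlap, and the log2 difference was 3.27 ± 0.57 (SE), with an adjusted p of 0.0124. That difference exceeded 98.5% of the 9884 genes tested. Among those genes, 11.1% were called higher and 1.13% lower, against 1 and 0 of the 8 host RNAs. With a change of 4-fold or more also asked for, Snhg5 stayed in, beside 6.20% of genes. By limma voom on the recovered reads 1 host RNA was called, beside 11.2% of genes. An unadjusted p under 0.05 was reached by 3 host RNAs, beside 28.9% of genes. Leaving out library S15 or S7 of the α-amanitin − group gave Snhg5 adjusted p of 0.0649 and 0.0697, at log2 differences of 3.12 and 2.99. In those fits 79 of 8789 and 57 of 8760 genes were called higher, against 1093 with all libraries. Without S17, S18 or S8 the genes called higher numbered 129, 511 and 651.

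**Figure D1:**
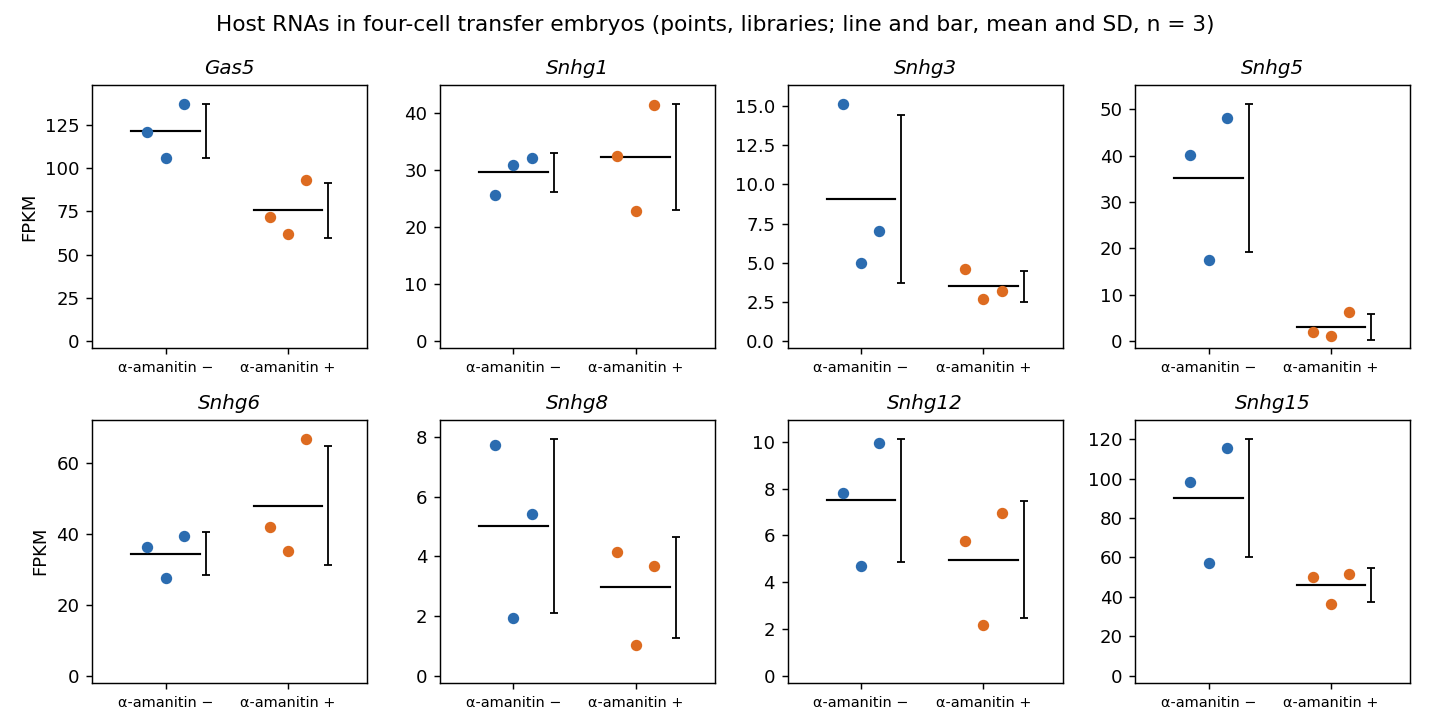
FPKM (y axis) of each host RNA in the 3 four-cell libraries without (blue) and the 3 with α-amanitin (orange), with the mean as a line and the SD as a bar. By fold, Snhg5 separates the groups most widely, at 17.4 FPKM or more against 6.18 or less, while Snhg1, Snhg6, Snhg8 and Snhg12 overlap.

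Gas5, named for its accumulation in growth-arrested cells, stood at 121, 106 and 137 FPKM without α-amanitin and at 71.5, 62.0 and 93.1 FPKM with it. The groups did not overlap. The log2 difference of 0.69 ± 0.25 did not pass (limma, adjusted p = 0.109). Snhg15 stood at 98.5, 57.1 and 115 FPKM against 50.3, 36.2 and 51.9 FPKM. Here too the lowest library without α-amanitin lay above the highest with it, and the log2 difference was 0.91 ± 0.32 (adjusted p = 0.101). Snhg3, host of the Snora73 snoRNAs, stood at 15.1, 4.99 and 7.03 FPKM against 4.58, 2.68 and 3.19. Its α-amanitin + values rest on 14, 3 and 5 reads, and its log2 difference was 1.06 ± 0.47 (adjusted p = 0.179).

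Members whose groups did not overlap thus numbered 4, all higher without α-amanitin, beside 27.6% of all genes tested, and 0 were lower without overlap, beside 7.56%. The other 4 overlapped. Snhg1 stood at 25.7, 30.9 and 32.2 FPKM without α-amanitin and at 32.6, 22.8 and 41.5 FPKM with it (log2 difference −0.09 ± 0.31). Snhg6 stood at 36.4, 27.7 and 39.5 FPKM against 41.9, 35.3 and 67.0 (−0.43 ± 0.32). For these C/D hosts, the 95% intervals of the log2 difference ran from −0.79 to 0.62 and from −1.16 to 0.30. A doubling of FPKM without α-amanitin thus lay outside both. FPKM here are relative within each library, so a doubling of RNA per embryo was not tested. Snhg12 stood at 7.83, 4.71 and 9.95 FPKM against 5.75, 2.16 and 6.97 (0.57 ± 0.49). Snhg8 stood at 7.72, 1.92 and 5.42 FPKM against 4.16, 1.03 and 3.69, on 1 to 15 reads per library (0.58 ± 0.57). At these counts a modest change in Snhg8 or Snhg12 was not detectable.

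The median log2 difference was 0.63 over the 8 host RNAs and 0.37 over all genes tested. The four-cell table lists 0 spike-ins, so its values are relative within each library. Scaled by the median of ratios over genes, the median of all genes was 0.13, and Snhg5 was called at 2.99 (adjusted p = 0.0216). Donor myoblast markers (12 genes) summed to 187, 508 and 2256 FPKM with α-amanitin and to 255, 221 and 723 FPKM without it, with 6 to 9 and 5 to 6 of the 12 at FPKM of 1 or more. Their sum was highest in library S8, and its part in the results was not tested. S8 also held the highest α-amanitin + value of all members but Snhg3 and Snhg8. Without S8 the log2 difference of Snhg5 was 3.79 and of Snhg1 0.11.

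Other genes of the pathway, from lists chosen with earlier results of these data known, were mostly not called in four-cell embryos, where 11.1% of all genes were called higher, 1.13% lower and 28.9% reached an unadjusted p under 0.05. Of 14 other noncoding snoRNA hosts, 11 were tested and 0 were called (3 at an unadjusted p under 0.05, 0 by voom), with a median log2 difference of 0.80. Of 27 coding hosts, mainly ribosomal protein and translation factor genes, 1 was called, Eif4a2 (an mRNA helicase gene), higher by 1.50 ± 0.25 on the log2 scale (adjusted p = 0.0107). The median over the coding hosts was −0.25, and 6 had an unadjusted p under 0.05. Of 16 snoRNP protein genes (Fbl, Dkc1 and others that build and hold the guide particles), 0 were called (1 at an unadjusted p under 0.05, 0 by voom), with a median of 0.09. Of 14 NMD factor genes tested, 1 was called, Upf2, which binds UPF1 in the decay complex, higher by 2.01 ± 0.50 (adjusted p = 0.0361), and 3 had an unadjusted p under 0.05. Among the marker lists, 1 of 8 embryo markers was called and 0 of 7 donor markers tested (1 at an unadjusted p under 0.05, 0 by voom). The one called was Zp3, a zona pellucida gene of the oocyte, lower without α-amanitin by a log2 difference of −1.69 ± 0.44 (adjusted p = 0.0399).

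In two-cell embryos, Snhg3 separated the α-amanitin states most among the host RNAs. As deposited, Snhg3 stood at 42.3, 38.4 and 32.5 FPKM in NT and at 10.6, 7.14 and 13.6 FPKM in Am. In the other column set it stood at 77.0, 138 and 131 FPKM in R and at 2.89, 3.17 and 1.53 FPKM in RAm. The lowest library without α-amanitin lay above the highest with it. With FPKM scaled to 47 spike-ins found in all 12 libraries, the log2 difference of Snhg3 was 4.61 ± 0.64 (adjusted p = 4.93e-05), a 24.4-fold higher level. It exceeded 98.7% of the 17196 genes tested. Without spike-in scaling the log2 difference was 3.41 (adjusted p = 0.000434).

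Genes that overlap Snhg3 moved with it in this comparison. Gm17300 lies on the opposite strand and Rcc1 on the same strand, and the counting is not stated to use strand. Gm17300 stood at 21.4 to 88.9 FPKM without and 3.43 to 8.68 FPKM with α-amanitin in two-cell embryos (log2 difference 4.09 ± 0.57, adjusted p = 4.68e-05). Rcc1, which encodes a chromatin-bound exchange factor for RAN, stood at 3.77 to 8.84 against 0.288 to 3.51 FPKM (2.60 ± 0.42, adjusted p = 0.000122). The share of reads that these genes lend to Snhg3 was not tested. In four-cell embryos neither was called, with log2 differences of −0.43 for Gm17300 and 0.13 for Rcc1.

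**Figure D2:**
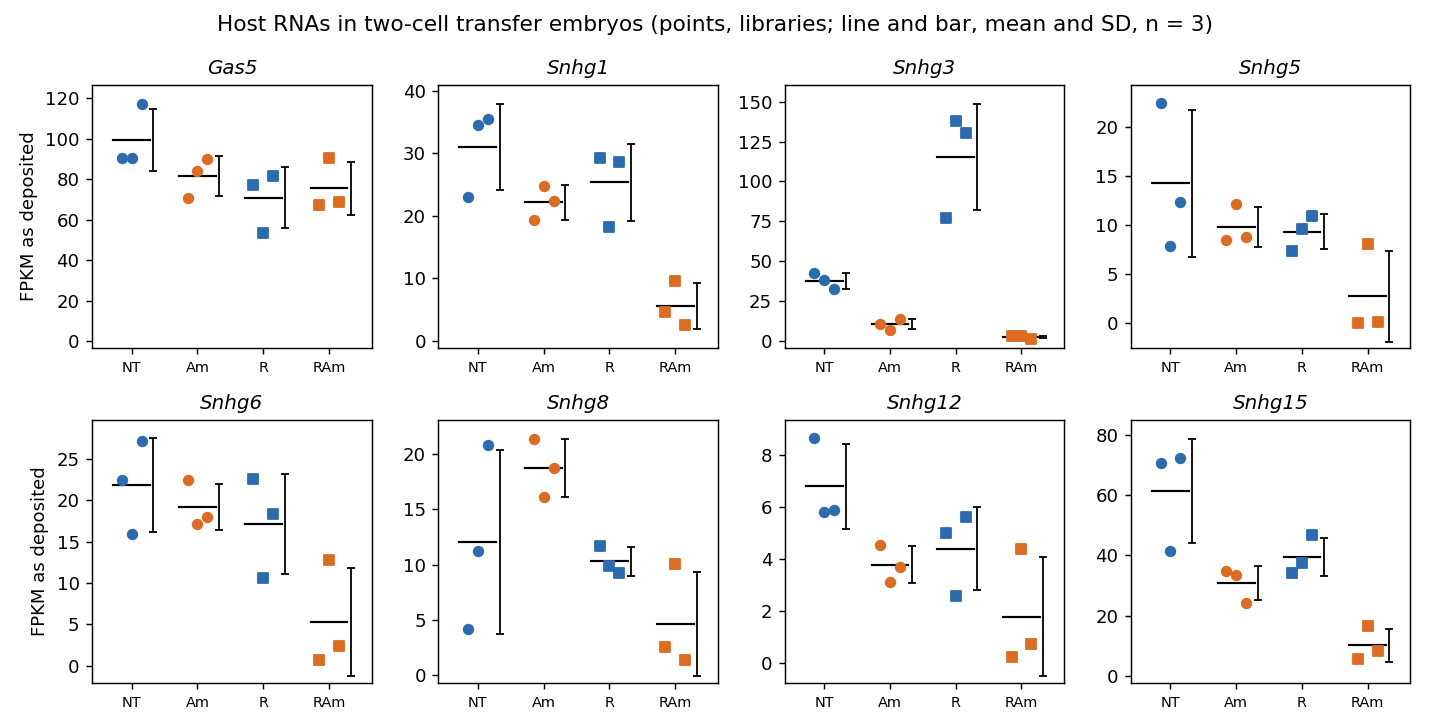
FPKM as deposited (y axis) of each host RNA in the two-cell columns NT and R (blue, without α-amanitin) and Am and RAm (orange, with it), 3 libraries each, with the mean as a line and the SD as a bar. Snhg3 is high in NT and R and low in Am and RAm, Gas5 lies between 53.6 and 117 FPKM in all 12 libraries, and RAm2 lies above RAm1 and RAm3 for every host RNA.

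Gas5 was the opposite case. It stood at 90.4, 90.7 and 117 FPKM in NT, at 70.5, 84.1 and 90.1 FPKM in Am, at 77.1, 53.6 and 81.7 FPKM in R and at 67.2, 90.3 and 68.8 FPKM in RAm. The 2 states overlapped over the 12 libraries, with a log2 difference of 0.09 as deposited (adjusted p = 0.835). Scaled to the spike-ins, Gas5 rose by 1.48 ± 0.45 on the log2 scale without α-amanitin (adjusted p = 0.00748). The median over all genes tested was 1.49, so Gas5 differed from the median gene by −0.0048 on that scale. Scaled by the median of ratios over genes, its log2 difference was −0.73 (adjusted p = 0.0793). The direction for Gas5 thus depends on the scaling.

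With spike-in scaling all 8 host RNAs were called higher without α-amanitin, beside 71.4% of all genes tested and 1.63% called lower, and 5 of them by 4-fold or more, beside 34.0%. Their groups of scaled values did not overlap for 6, beside 35.4% of all genes. With FPKM as deposited, 3 were called (Snhg1, Snhg3 and Snhg15), beside 38.9% of genes, and with the median of ratios over genes 1 was called (Snhg3), beside 21.9%. The median log2 difference over all genes was 1.49, 0.67 and 0.23 under these scalings. These fits pooled the column sets without a set term. With column set as a covariate the spike-in-scaled median was also 1.49. All genes were called higher and lower in numbers of 12278 and 281, of 6694 and 1464, and of 3770 and 2440.

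Snhg15, which holds Snora9, stood at 70.8, 41.6 and 72.2 FPKM in NT and at 34.7, 33.6 and 24.2 FPKM in Am. It stood at 34.3, 37.4 and 46.6 FPKM in R and at 5.71, 16.4 and 8.20 FPKM in RAm. The states were apart within each set, and R overlapped Am. The log2 difference was 2.78 ± 0.56 scaled to spike-ins (adjusted p = 0.000485) and 1.46 as deposited (adjusted p = 0.0201). Snhg1 stood at 23.0, 34.5 and 35.4 FPKM in NT and at 19.3, 24.8 and 22.4 FPKM in Am. It stood at 29.3, 18.3 and 28.6 FPKM in R and at 4.56, 9.65 and 2.60 FPKM in RAm. The separation was wide only between R and RAm, and NT overlapped Am. Its log2 difference was 2.54 ± 0.57 scaled (adjusted p = 0.000948) and 1.28 as deposited (adjusted p = 0.0425).

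Snhg12 stood at 2.57 to 8.68 FPKM without α-amanitin (median 5.73, n = 6) and at 0.220 to 4.55 FPKM with it (median 3.41). The ranges overlapped as deposited and not after scaling, where the log2 difference was 1.91 ± 0.42 (adjusted p = 0.000864). Snhg6 stood at 10.7 to 27.2 FPKM (median 20.4) against 0.693 to 22.4 FPKM (median 14.99), with 2.26 ± 0.62 on the scaled log2 scale (adjusted p = 0.00392). Snhg5 stood at 7.36 to 22.5 FPKM (median 10.3) against 0 to 12.1 FPKM (median 8.26), with 2.29 ± 0.60 (adjusted p = 0.0028). RAm1 held 0 reads of Snhg5, which allows up to 3 reads of its 9448313. Snhg8 stood at 4.13 to 20.8 FPKM (median 10.6) against 1.34 to 21.4 FPKM (median 13.1), with 1.41 ± 0.59 (adjusted p = 0.0384). As deposited, the FPKM ranges of Snhg5, Snhg6 and Snhg8 overlapped between the states. After scaling, those of Snhg5 and Snhg8 still overlapped and those of Snhg6 did not.

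Within the column sets, Snhg12 stood at 5.83 to 8.68 FPKM in NT and 3.12 to 4.55 in Am, and at 2.57 to 5.62 FPKM in R and 0.220 to 4.41 in RAm. It was apart between NT and Am only. Snhg6 stood at 15.9 to 27.2 FPKM in NT and 17.2 to 22.4 in Am, and at 10.7 to 22.5 FPKM in R and 0.693 to 12.8 in RAm. Snhg5 stood at 7.85 to 22.5 FPKM in NT and 8.44 to 12.1 in Am, and at 7.36 to 10.9 FPKM in R and 0 to 8.08 in RAm. Snhg8 stood at 4.13 to 20.8 FPKM in NT and 16.1 to 21.4 in Am, and at 9.24 to 11.7 FPKM in R and 1.34 to 10.03 in RAm. These last 3 hosts overlapped between the states in both sets as deposited. For Snhg8 the call was lost with a pseudocount of 0.1 (adjusted p = 0.0505), without the filter (0.0882), with number pairs as a block (0.0765, where 7 members were called beside 67.5% of genes) and on leaving out any of 8 libraries (0.0504 to 0.102).

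**Figure D3:**
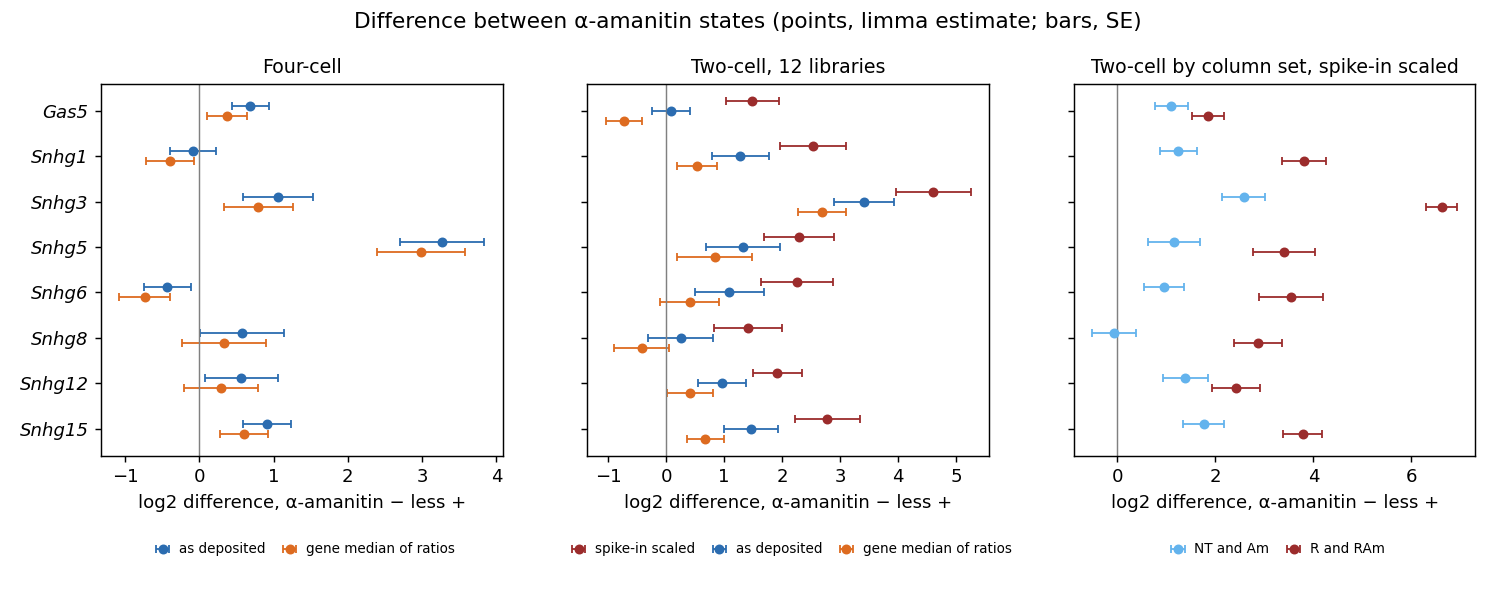
Log2 difference, α-amanitin − less + (x axis), of each host RNA with its SE as a bar: four-cell embryos on the left under 2 scalings, all 12 two-cell libraries in the middle under 3 scalings, and the 2 two-cell column sets, each fitted alone with spike-in scaling, on the right. Snhg5 leads in four-cell and Snhg3 in two-cell embryos, Gas5 moves from 1.48 to −0.73 with the scaling, and with spike-in scaling the R and RAm set lies to the right of the NT and Am set for every member, which as deposited does not hold for Gas5.

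Within the column sets, 5 host RNAs were called higher between NT and Am, beside 31.5% of genes, and 8 between R and RAm, beside 80.5%. The difference of the α-amanitin effect between the sets was tested, a test added after the values were seen. It was larger in the R and RAm set for 6 members (Snhg1, Snhg3, Snhg5, Snhg6, Snhg8 and Snhg15), beside 50.5% of genes. Snhg3 differed by 2.55 in the NT and Am set and by 6.67 in the R and RAm set, 4.12 ± 0.53 apart (adjusted p = 4.26e-05). Snhg8 differed by −0.09 and 2.91 (adjusted p of the difference = 0.00258). The effects were 1.22 and 3.85 for Snhg1, 1.73 and 3.82 for Snhg15, 1.14 and 3.44 for Snhg5, and 0.93 and 3.58 for Snhg6. Gas5 (1.08 and 1.89, adjusted p = 0.168) and Snhg12 (1.36 and 2.47, adjusted p = 0.189) did not pass. As deposited, without spike-in scaling, the difference passed for Snhg1, Snhg3 and Snhg8, beside 36.0% of genes. For Gas5 the direction turned as deposited, at 0.28 in the NT and Am set and −0.10 in the R and RAm set (adjusted p of the difference = 0.362). Dppa3 and Dppa4 were low in RAm alone, as given above, and their part in these differences was not tested.

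In the RAm libraries Gas5 dominated the family. It made up 80.2%, 58.3% and 80.3% of the summed FPKM of the 8 members in RAm1, RAm2 and RAm3. The share was 36.8% to 45.2% in Am, 31.8% to 36.9% in NT and 19.1% to 29.2% in R. The summed FPKM of the 8 members was 83.8, 155 and 85.7 in RAm and 192 to 332 in the other two-cell libraries.

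**Figure D4:**
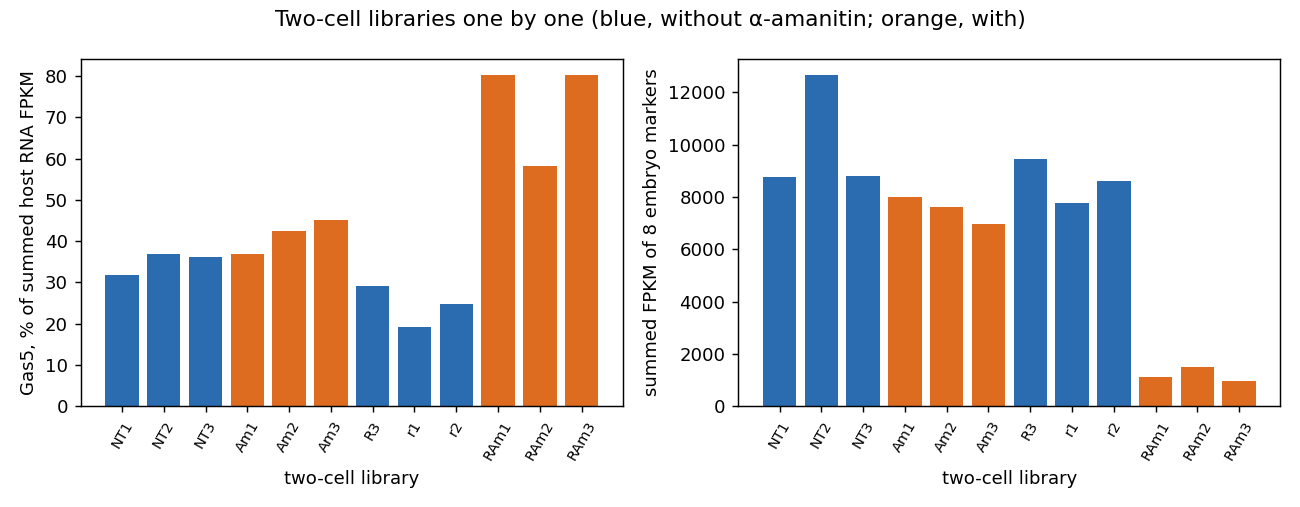
For each two-cell library (x axis), the share of Gas5 in the summed FPKM of the 8 host RNAs (left, %) and the summed FPKM of 8 embryo markers, mostly Dppa3 (right), in bars from 0, blue without and orange with α-amanitin. The Gas5 share is 58.3% or more in the RAm libraries and 45.2% or less in the others, and the marker sum is at 1496 FPKM or less in RAm and 6983 or more elsewhere.

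Around the hosts in two-cell embryos, 27 of 27 coding hosts, 15 of 15 snoRNP protein genes tested, 14 of 14 NMD factors tested and 9 of 12 other noncoding hosts tested were called higher without α-amanitin after spike-in scaling, beside 71.4% of all genes tested. Their median log2 differences were 2.88, 3.23, 1.67 and 1.98, beside 2.27 for the 8 host RNAs and 1.49 for all genes. Donor myoblast markers were called higher in 4 of 8 tested, and embryo markers in 2 of 7 (Dppa3 and Dppa4), beside the same 71.4%. The donor markers called were Col3a1, Col1a2, Vim and Des. Col3a1, a fibrillar collagen gene, stood at 6.68 to 45.3 FPKM without and 0.615 to 1.71 FPKM with α-amanitin (log2 difference 4.03 ± 0.39, adjusted p = 5.4e-06), and its groups did not overlap. Col1a2, Vim and Des differed by 1.55, 1.46 and 1.15, and their FPKM overlapped between the states. The part of donor RNA in the two-cell differences of the host RNAs was not tested. With FPKM as deposited, the counts called higher were 21 coding hosts, 14 snoRNP protein genes, 8 NMD factors, 5 other noncoding hosts (1 lower), 1 donor marker and 2 embryo markers (3 lower), beside 38.9% of genes. With the median of ratios over genes they were 11, 7, 3, 4 (1 lower), 1 (3 lower) and 1 (4 lower), beside 21.9%. The NMD factor genes Upf2 (mean 9.89 against 10.25 FPKM) and Smg1 (2.29 against 2.88) were lower as deposited without α-amanitin and called higher after spike-in scaling. The sums of the donor markers ran from 1194 to 2532 FPKM with α-amanitin and from 158 to 4493 FPKM without it.

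The α-amanitin effect was then compared between two-cell and four-cell embryos on FPKM as deposited, each within its own table. No member passed by limma, beside 2.59% of 17166 genes with a larger and 2.04% with a smaller effect in two-cell embryos. An unadjusted p under 0.05 was reached by 1 member, Snhg3, with the share of all genes at that p not given here. The two-cell column sets were pooled without a set term, so differences between them widen the SE. As deposited, Snhg3 differed by 1.79 in the NT and Am set and by 5.03 in the R and RAm set. The Snhg3 effect was 2.35 ± 0.82 larger in two-cell embryos on the log2 scale (adjusted p = 0.0936). The Snhg5 effect was 1.95 smaller (log2 difference −1.95 ± 1.05, adjusted p = 0.233). That Snhg3 leads at one stage and Snhg5 at the other is therefore not established as a difference between stages. The two-cell table uses another annotation of some hosts: Snhg5 spans chr9:88495268-88523562 there. Its counted length is 3634 bases in that table and 1730 in the others, of Snhg12 2402 and 1626, and of Snhg15 2652 and 1359, so differences in their level between tables are not tested. The effects compared above for these hosts likewise rest on different counted bases in each table.

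No host RNA passed the test between D and DR, which both lack α-amanitin. Gas5 stood at 101, 86.8 and 131 FPKM in D and at 70.3, 110 and 84.0 FPKM in DR. Snhg15 stood at 66.3, 31.8 and 156 FPKM against 25.6, 72.6 and 43.6 FPKM. Snhg5 stood at 23.1, 21.2 and 82.3 FPKM against 12.6, 38.4 and 10.5 FPKM, and library D5 was the highest of all 6 for Gas5, Snhg1, Snhg5, Snhg12 and Snhg15. The groups overlapped for all 8 members, while 0.0137% of genes were higher and 0.975% lower in DR without overlap.

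Snhg3 stood at 48.4, 20.9 and 27.0 FPKM in D against 20.3, 27.3 and 32.8 FPKM in DR. Snhg1 stood at 25.0, 14.7 and 47.2 FPKM against 27.2, 28.9 and 25.9 FPKM. Snhg6 stood at 25.1, 34.6 and 34.4 FPKM against 28.2, 33.0 and 25.0 FPKM. Each of these overlapped. Snhg8 stood at 8.51, 8.19 and 9.25 FPKM against 2.69, 9.79 and 5.63 FPKM, and Snhg12 at 7.56, 5.76 and 15.5 FPKM against 5.56, 11.8 and 5.98 FPKM. With FPKM scaled to the 19 spike-ins found in all 6 libraries, 0 members and 0 of 14570 genes were called by limma in either direction, with 0 members and 0.604% of genes at an unadjusted p under 0.05. The scaled log2 differences, DR less D, ran from −2.49 to −1.51 with SE of 2.07 to 2.40, so changes of several fold were not detectable. The median over all genes tested was −1.41 on that scale, with 0.782% of genes above 0, so the host RNAs share their sign with nearly all genes. Spike-in scale factors ran from 0.0937 (D1) to 5.603 (D5) in D and from 0.364 to 4.01 in DR. Without D1 the median over all genes was −0.365 and the host RNAs ran from −1.57 to −0.22, and without D5 the median was −2.63 and they ran from −3.41 to −2.63. As deposited they ran from −0.95 to 0.07 with SE of 0.243 to 0.649 and adjusted p of 0.808 to 0.975.

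**Figure D5:**
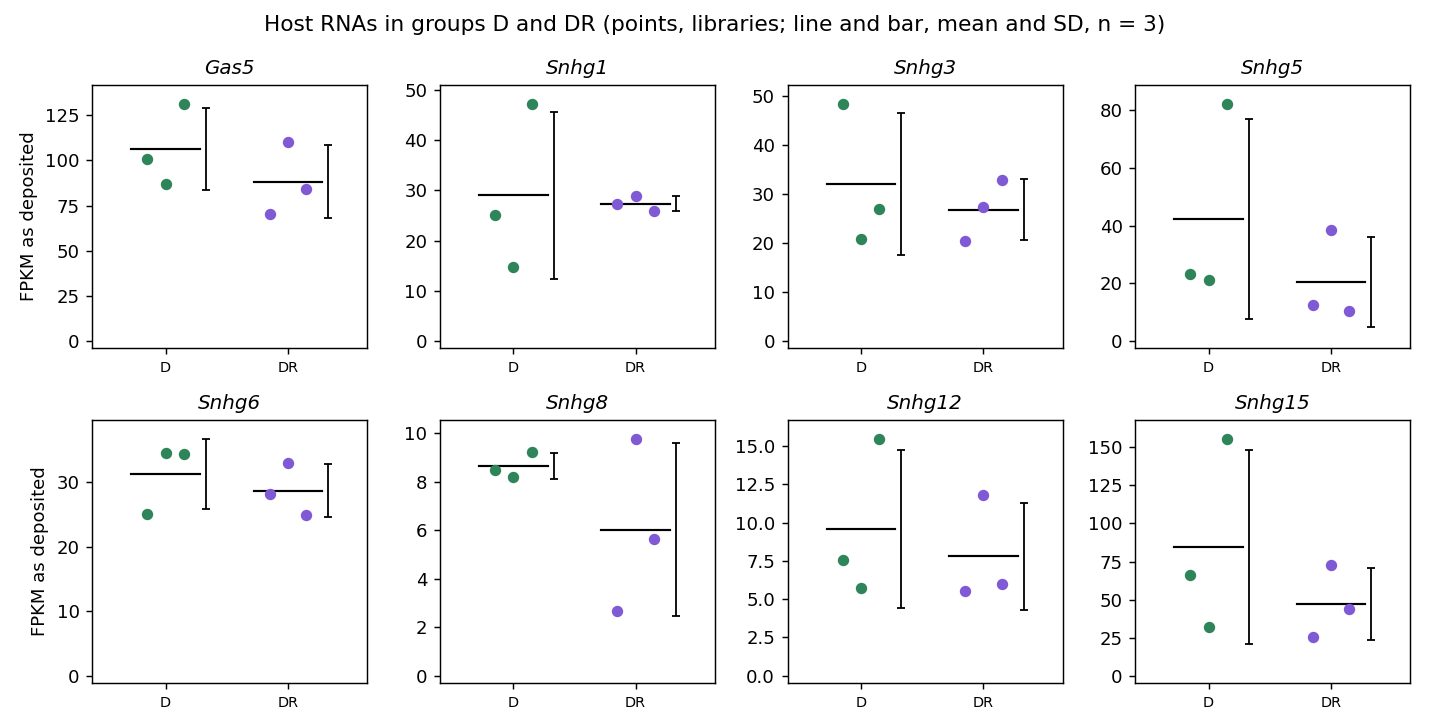
FPKM as deposited (y axis) of each host RNA in the 3 D libraries (green) and the 3 DR libraries (purple), with the mean as a line and the SD as a bar. The groups overlap for every host RNA, and D5 is the highest library for Snhg15 at 156 FPKM.

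The snoRNAs themselves gave few reads. All 30 snoRNA annotations inside the 8 hosts are listed in each table by gene identifier. In the four-cell table, all 30 are at 0 reads in all 6 libraries. In the replication table, 30 were above 0 in some library and 16 in every library, at up to 93.5 reads. In the two-cell table, 30 were above 0 in some library and 3 in every library, at up to 38.2 reads. The assay read polyadenylated RNA, and mature snoRNAs carry no poly(A) tail. The four-cell FPKM hold whole reads only, whereas the other tables hold fractional reads (41.4% to 50.6% and 40.3% to 45.3% of values whole within 0.01 reads). Reads on a snoRNA and reads on an overlapping host exon cannot be told apart in these tables.

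Across all 24 libraries, each host was compared by Pearson r of log2(FPKM + 1) with 12550 genes, as a description over points that share tables, depth and α-amanitin state. Snhg6 was most like Mrps21, Tomm7 and Psmb4 (r = 0.951, 0.941 and 0.933), and Snhg1 was most like Uqcr10, Snrpe and Lst1 (0.944, 0.944 and 0.941). Snhg3 was most like its overlapping neighbour Gm17300 (0.934), then Gm1995 and Gm7104 (0.932 for both). Snhg5 was most like Tuba4a, Impad1 and Zfp42 (0.912, 0.904 and 0.886), and Snhg15 was most like Eif4a2, Tmem203 and Ppp1r11 (0.909, 0.901 and 0.901). Snhg12 was most like 1110038B12Rik, 2410006H16Rik and its fellow member Snhg15 (0.893, 0.891 and 0.886). Snhg8 was most like Fam102b, Wdr44 and Dennd5b (0.875, 0.815 and 0.813). Gas5 had the weakest best matches, Dcxr, 1810032O08Rik and Stam (0.780, 0.773 and 0.768), of which 1810032O08Rik is the identifier that the two-cell table names Snhg16.

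Among the members themselves, r over the 24 libraries ran from 0.05 for Gas5 with Snhg3 to 0.89 for Snhg12 with Snhg15. Snhg5 with Snhg12 (0.87), Snhg1 with Snhg6 (0.85) and Snhg1 with Snhg15 (0.84) followed. The two-cell points of Snhg5, Snhg12 and Snhg15 rest on other counted lengths. Within the four-cell, replication and two-cell tables (6, 6 and 12 libraries), r was 0.86, 0.94 and 0.90 for Snhg12 with Snhg15 and 0.76, 0.94 and 0.92 for Snhg5 with Snhg12. It was 0.69, 0.06 and 0.89 for Snhg1 with Snhg6, and 0.09, 0.76 and 0.90 for Snhg1 with Snhg15. These latter pairs thus varied with the table. Over all 24 libraries, Snhg3 stayed at 0.51 or less with every other member, and Snhg8 likewise. Within the tables, in the same order, some of their pairs were closer. Snhg3 with Snhg15 had r of 0.83, 0.40 and 0.76, and Snhg8 with Snhg12 had 0.90, 0.64 and 0.61. Other pairs were not, such as Snhg3 with Snhg6 at −0.29, −0.64 and 0.59.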

How the data were processed

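Libraries were made from pooled embryos by poly(A)-primed cDNA amplification with spike-in RNAs added, and were read in pairs. Per the labels and methods, the authors trimmed reads with Trimmomatic, Trim Galore and cutadapt, mapped them with STAR to mm10, counted with featureCounts, and deposited FPKM per gene, not scaled to spike-ins. Versions and the annotation release are not given in the sources used here. Columns were assigned by name. The 4 columns DD and NN, which match no group, and the oryx table, whose further columns hold the authors' fold changes and p-values, were not used.

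The filter kept genes reaching 1 FPKM in 3 or more libraries. The test was limma (version 3.58.1, trend, in R version 4.3.3) on log2(FPKM + 1), which understates changes of low genes, with Benjamini-Hochberg adjustment over all genes tested and a call at 0.05. Spike-in scaling (replication and two-cell) used the median of ratios over spike-ins above 0 in every library. FPKM are not counts, so limma replaced the study's count test, and voom was run on four-cell reads. Other scalings, a pseudocount of 0.1, no filter, left-out libraries, a replicate block and column set as a covariate were tried. One read was taken as the commonest low value where steps were fractional, so those depths are approximate. The limma fit was also run on simulated counts without spike-in scaling or column sets, so the scaled fits were not tested that way. Named genes were the 8 members, the 3 genes most like each, and those called in the lists of pathway genes in the four-cell comparison (up to 4 a list). Marker genes, genes overlapping Snhg3, Upf2 and Smg1 in two-cell embryos were named after their values were seen. The members and lists were chosen with earlier results of these data known. The labels do not say whether pools came from separate cultures or days, so p-values measure the spread between these pools. Intervals of log2 differences are limma's and rest on the same spread. Depth was as stated above, and the floor given for 0 reads covers counting error only.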

Additional observations from a re-analysis of the deposited data

Results flagged for a closer look

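Of 16 sets of 6 two-cell values examined, 1 had a library far from the rest by Dixon's criterion, where chance gives about 1 in 20. Snhg5 in NT1 stood at 22.5 FPKM, and its gap to the next library was 0.671 of the range of the 6 libraries without α-amanitin. The log2 difference between α-amanitin states was larger in the R and RAm columns than in the NT and Am columns for 6 host RNAs after spike-in scaling, a comparison of column sets whose meaning the labels do not give. The sets differed by 2.63 for Snhg1, 4.12 for Snhg3, 2.31 for Snhg5, 2.66 for Snhg6, 3.00 for Snhg8 and 2.09 for Snhg15, and 50.5% of all genes passed the same test in that direction.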

How the results depend on the processing

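Over 344 values of single host RNAs under alternatives, 312 kept direction and side of the threshold, 25 lost the call with the same direction and 7 reversed. The reversals were Snhg1 in four-cell embryos without library S8 (0.1087) or S15 (0.0075), over a range of −0.31 to 0.11 with each library left out, Snhg1 between DR and D with the median of ratios (0.0157) or as deposited (0.0682), and in two-cell embryos Gas5 (−0.73) and Snhg8 (−0.42) with the median of ratios and Snhg8 in NT and Am alone (−0.0644). Called members in two-cell embryos numbered 8 with spike-in scaling, 3 as deposited, 1 with the median of ratios and 5 in NT and Am alone. Leaving out each library gave 7 to 8 there, and 0 to 1 in four-cell embryos, where the call of Snhg5 was lost without S15 or S7. Over all four-cell genes, 1093 were called higher, 673 with a pseudocount of 0.1, 275 without the filter and 57 to 1362 with each library left out, the fewest without S7 (57), S15 (79) and S17 (129). In two-cell embryos 12278 genes were called higher, 6694 as deposited, 3770 with the median of ratios and 4503 in NT and Am alone. The causes were not tested.

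With the column numbers as a replicate block in two-cell embryos, 7 members were called, the call of Snhg8 being lost. The numbers share no origin in the labels, and same-numbered columns had deviations correlated at −0.004 to 0.08, so they were not taken as pairs. Four-cell columns share no number between groups. Adjacent numbers (S7 with S8, S15 with S16, S17 with S18), which the labels do not give as pairs, had deviations correlated at 0.17, 0.0692 and 0.0274, so they were not taken as pairs either. With them as a replicate block, 1 member was called (Snhg5, adjusted p = 0.00914), Gas5 had an adjusted p of 0.0884 and Snhg15 of 0.0578, and 992 genes were called higher. No paired analysis was possible because D (1, 4 and 5) shares only number 1 with DR in the replication experiment. The four-cell spike-in scaling and the split of early from late two-cell embryos were not run, for want of spike-ins and of stage names. The two-cell column sets, column set as a covariate, left-out two-cell libraries, the adjacent-number block, the other scalings of the lists and the test between sets were added after seeing the data. In four-cell embryos, Snhg8 in all 6 libraries and Snhg3, Snhg5 and Snhg12 in some rest on 15 reads or fewer, which limits their precision.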
